A study of Mus musculus with 15 samples.

Results

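The 9 genes described here encode the cAMP machinery that holds a mammalian oocyte in meiotic arrest: the receptors Gpr3 and Gpr12, the stimulatory G protein gene Gnas, the adenylyl cyclases Adcy3 and Adcy9, the phosphodiesterase Pde3a, and the protein kinase A subunits Prkaca, Prkar1a and Prkar2a. They were chosen by symbol from knowledge of the pathway and were matched to Ensembl identifiers with the GENCODE vM21 annotation. They are 9 of the 55401 genes in the count files, and all 9 passed the filter on low counts, which kept 21009 genes. Each was measured in 15 RNA-seq libraries of mouse oocytes in 5 groups of 3.

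An oocyte in a growing follicle rests at prophase of the first meiotic division, the germinal vesicle (GV) stage, for as long as its cAMP stays high. GPR3 signals without an added ligand through the stimulatory G protein to adenylyl cyclase, and the cAMP made there activates protein kinase A, which keeps the kinase CDK1 in its inactive form. PDE3A is the main enzyme that breaks down cAMP in the oocyte, and it is restrained by cGMP that enters from the surrounding granulosa cells through gap junctions.

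All oocytes came from Kunming mice, and no group carries a genetic change. IVV oocytes (labelled Invivo) came from follicles grown in vivo. Follicles for culture were isolated from ovaries of mice aged 12 to 14 days and grown in vitro without added neurotrophin (IVG at day 10, labelled C_10d, and IVG day 6, labelled C_6d) or with neurotrophin-4, NT-4 (IVG-NT at day 10, labelled NT_10d, and IVG-NT day 6, labelled NT_6d). The medium of all the culture groups contained FSH, fetuin, albumin, insulin and transferrin. The study took mouse ovaries at 2 and 6 weeks of age, and which age gave the IVV oocytes is not given in the sources used here. Each library was made from a pool of 6 oocytes, so the values are averages over a pool, and the 3 libraries of a group came from separate repeats of the experiment. In a pool, less RNA of a gene per oocyte and fewer oocytes with that RNA cannot be told apart.

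Total counts ran from 5.95 M to 55.6 M per library. The lowest totals were those of IVG-NT day 6 replicates 1 and 2, with 5.95 M and 7.13 M counts and 13338 and 10991 genes with a count. An annotated rRNA gene, CT010467.1, took more than 5% of counts in 9 libraries (called rRNA-rich here, namely the IVV library numbered 3 and the libraries numbered 1 and 2 in every culture group) and under 1% in the other 6 (rRNA-poor), so IVV has 1 rRNA-rich library of 3 and each culture group has 2 of 3. All 12 oocyte markers had counts in every library, and summed to 12370 to 22450 CPM. The 12 granulosa and cumulus markers summed to 48.7 to 305.9 CPM with 3 to 12 of them detected, the 10 theca and stroma markers to 0.56 to 98.3 CPM, and the 8 macrophage and blood markers to 13.2 to 58.4 CPM. The part of these differences between libraries in the results was not tested, and where the kind of library moves with a member its values are given beside it.

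The genes lie on different chromosomes (GRCm38, protein-coding genes, whole gene spans). Gpr3 is at chr4:133209340-133212536 on the minus strand, Gpr12 at chr5:146582398-146585239 on the minus strand, Gnas at chr2:174284320-174346744 on the plus strand and Adcy3 at chr12:4133103-4213525 on the plus strand. Adcy9 is at chr16:4287529-4420498 on the minus strand, Pde3a at chr6:141249269-141507448, Prkaca at chr8:83972993-83996443, Prkar1a at chr11:109649405-109669656 and Prkar2a at chr9:108689314-108750436, these last on the plus strand. RefSeq promoter windows of 300 bases were at hand for 8 of the 9 genes, in 19 windows.

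3 of these windows are shown because they belong to the most and the least abundant of the 2 arrest receptors and to the cAMP-binding subunit whose promoter holds the letters of a cAMP response element. Each runs 5′ to 3′ on the gene's strand, from 250 bases before to 50 after a RefSeq start (GRCm38.p6). Capitals mark GC boxes (GGGCGG on either strand, overlapping ones run together) in Gpr3 at chr4:133212487-133212786, E boxes (CANNTG) in Gpr12 at chr5:146585190-146585489 and the cAMP response element (TGACGTCA) in Prkar1a at chr11:109650612-109650911.
Gpr3: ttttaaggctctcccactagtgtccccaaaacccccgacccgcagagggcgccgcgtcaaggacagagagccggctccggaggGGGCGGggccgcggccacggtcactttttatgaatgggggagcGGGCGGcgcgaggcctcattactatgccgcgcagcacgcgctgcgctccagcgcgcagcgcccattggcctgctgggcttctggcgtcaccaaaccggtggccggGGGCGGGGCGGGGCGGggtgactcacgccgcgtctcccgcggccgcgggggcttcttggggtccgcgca
Gpr12: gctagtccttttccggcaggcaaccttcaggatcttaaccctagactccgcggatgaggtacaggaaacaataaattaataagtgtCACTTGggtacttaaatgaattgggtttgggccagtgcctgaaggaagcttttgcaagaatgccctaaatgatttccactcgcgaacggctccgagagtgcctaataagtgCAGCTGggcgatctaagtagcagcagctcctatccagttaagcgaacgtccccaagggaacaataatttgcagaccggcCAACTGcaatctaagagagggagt
Prkar1a: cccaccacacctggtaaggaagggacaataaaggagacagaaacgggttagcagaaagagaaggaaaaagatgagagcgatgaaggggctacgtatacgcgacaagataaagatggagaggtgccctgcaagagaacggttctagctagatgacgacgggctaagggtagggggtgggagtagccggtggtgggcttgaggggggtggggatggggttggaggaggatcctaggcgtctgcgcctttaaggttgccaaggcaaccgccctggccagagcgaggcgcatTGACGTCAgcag

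The Gpr3 window held 5 GC boxes and no E box. The Gpr12 window shown held 3 E boxes and no GC box, while the other Gpr12 window, at chr5:146584355-146584654, held 3 E boxes and 1 GC box. The full cAMP response element was found in 2 of the 19 member windows, both of them overlapping windows of Prkar1a, beside 1.79% of the 32851 windows of all genes in the table. GC boxes were found in 11 of the 19 windows beside 35.66% of all windows, and E boxes in 12 beside 72.31%. These are letter matches in the windows and no measure of a factor's binding.

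Per exon length, Gpr3 was the most abundant of the 9 genes in every group. Its mean ranged from 70.6 FPKM in IVV to 135 in IVG day 6 (FPKM here are TMM-normalized CPM divided by the exon length in kilobases), and only 1.48% to 4.15% of 20977 genes had a higher group mean. Prkar1a followed with 20.04 to 23.8 FPKM in every group, except that Pde3a stood above it at 27.9 FPKM in IVG, 24.3 in IVG-NT and 25.0 in IVG day 6. Gnas (4.23 to 13.8 FPKM), Prkar2a (3.12 to 12.4), Prkaca (3.40 to 9.15) and Adcy9 (3.06 to 4.26) lay in the middle. Gpr12 (0.05 to 0.61 FPKM) and, outside IVG-NT day 6, Adcy3 (0.12 to 1.21) were the lowest. The exons of Gnas cover 11186 bases with all its annotated transcripts joined, and its level is given over that joined length.

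**Figure D1:**
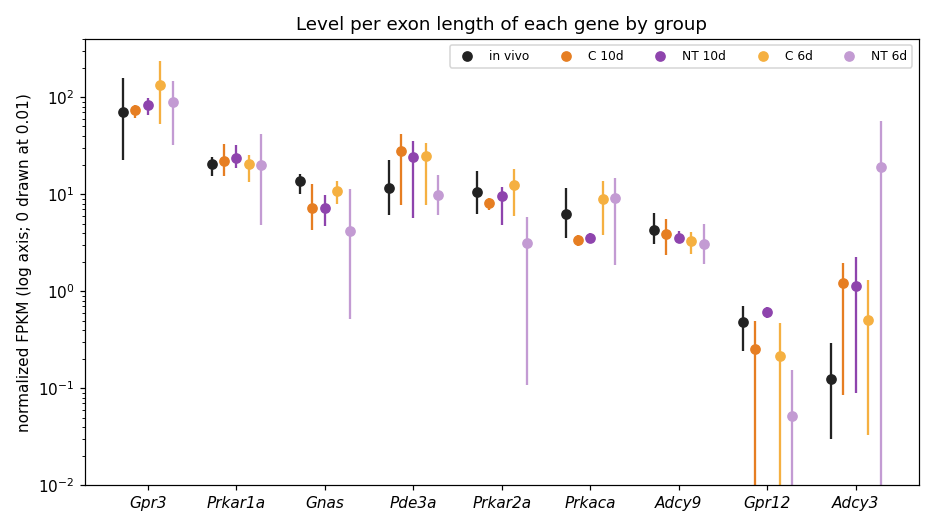
Group means (points) and the range over the 3 libraries of each group (lines) of normalized FPKM for the 9 genes, on a log axis with 0 drawn at 0.01, ordered by the IVV mean. Gpr3 stands highest in every group (70.6 to 135 FPKM), while Gpr12 and Adcy3 reach the bottom of the axis in some libraries.

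When the 5 groups were ordered by mean for each gene, the ranges of neighbouring groups overlapped in all 36 steps but 1, the step from IVG (52.0 CPM) to IVG-NT day 6 (19.9 CPM) in Prkar2a, where 3.14% of such steps over all genes did not overlap. Day 6 culture was not compared with IVV. Of the 10 comparisons tested, 9 had no member past the study's threshold for a differentially expressed gene (edgeR's quasi-likelihood test, log2 fold change beyond 1 and unadjusted P under 0.05). The exception was Adcy3 in IVG-NT day 6 against IVG day 6. No member had an unadjusted P under 0.05 in the other 9 comparisons, and the smallest adjusted p of any member was 0.407 (edgeR, Benjamini-Hochberg over all genes tested). No gene of the 21009 had an adjusted p under 0.05 in any of the 10 comparisons (0.0%), while DESeq2's Wald test gave between 51 and 715 such genes and no member among them. The share of all genes past the same threshold was 2.76% for IVG against IVV, 3.29% for IVG-NT against IVV, 1.24% for IVG-NT against IVG, 11.6% for IVG-NT day 6 against IVG day 6, 2.9% for IVG against IVG day 6 and 12.7% for IVG-NT against IVG-NT day 6. It was 5.4% for the mean of both day 10 cultures against IVV, 6.18% for NT-4 over both days, 10.4% for day 10 against day 6 over both treatments and 6.37% for the NT-4 by day interaction. In the comparisons whose replicate numbers were taken to pair the libraries, a block for the replicate number left no member past the threshold either. It took the count over all genes from 261 to 127 in IVG-NT against IVG and from 609 to 360 in IVG against IVG day 6. With DESeq2's Wald test, Prkaca alone passed, in IVG-NT against IVG-NT day 6 (14.2% of all genes did) and in day 10 against day 6 (10.2%), and Adcy3 had no p-value in the day 6 comparison.

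**Figure D2:**
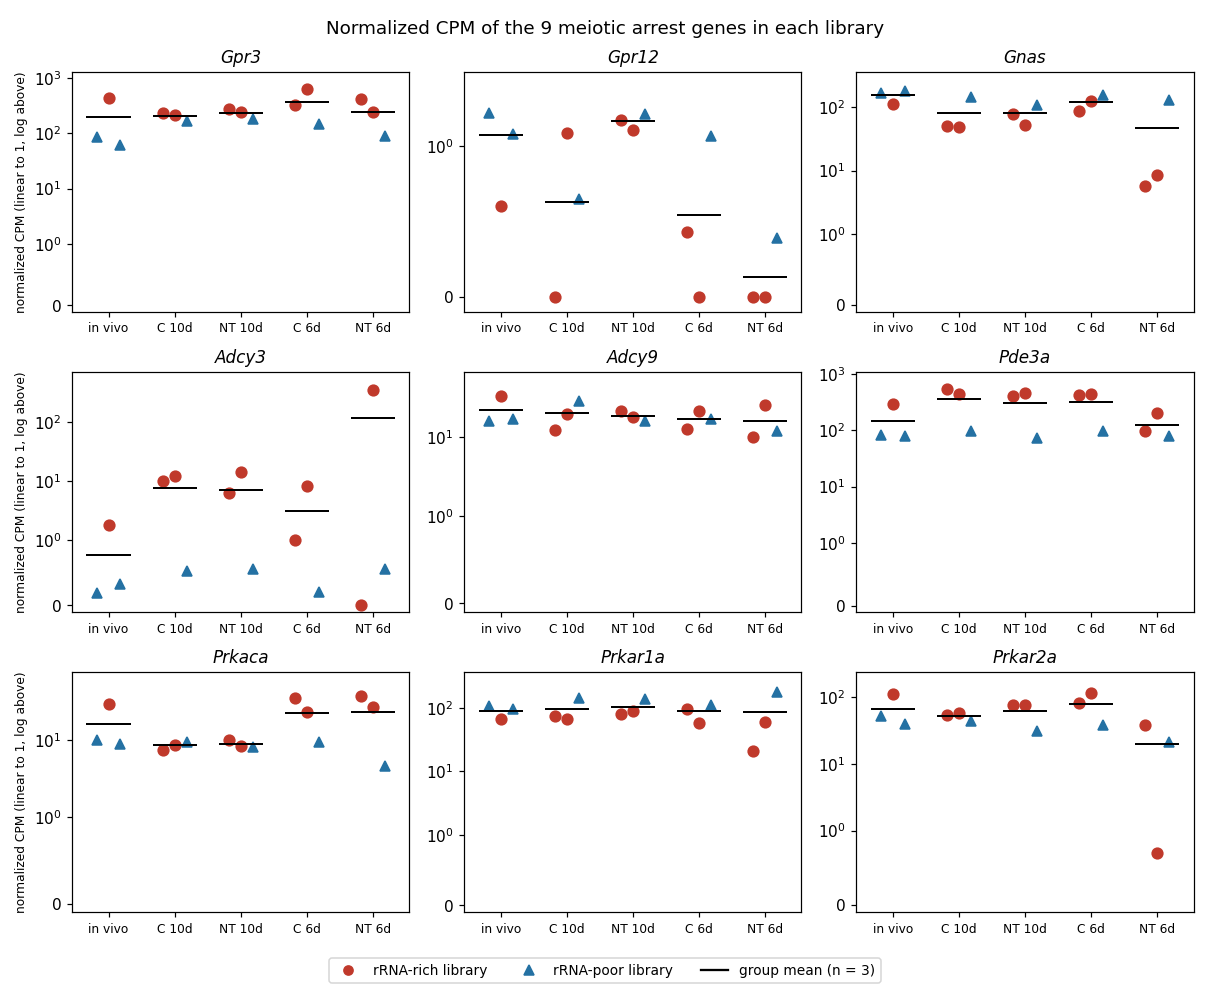
Normalized CPM of each gene in each of the 15 libraries, by group, on an axis that is linear up to 1 and logarithmic above (circles, rRNA-rich libraries; triangles, rRNA-poor libraries; lines, means of 3 libraries). Gpr3 is higher in every rRNA-rich library (209 to 639 CPM) than in any rRNA-poor library (62.2 to 179.6 CPM), and Adcy3 reaches 358 CPM in a single library.

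The receptors differed in level by a wide margin. Gpr3, the constitutively active receptor that starts the arrest signal, had 86.4, 431 and 62.2 CPM in IVV replicates 2, 3 and 4, 227, 209 and 166 CPM in IVG replicates 1 to 3, and 271, 239.7 and 179.6 CPM in IVG-NT replicates 1 to 3. At day 6 it had 326, 639 and 146 CPM in IVG and 406, 237 and 88.7 CPM in IVG-NT. In each group the rRNA-rich libraries were the higher ones, and all groups overlapped.

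The comparison of both day 10 cultures with IVV took opposite directions in the different kinds of library for Gpr3. The rRNA-poor day 10 libraries (166 and 179.6 CPM) lay above both rRNA-poor IVV libraries (86.4 and 62.2 CPM), a mean difference of 1.24 on the log2 CPM scale, whereas the 4 rRNA-rich day 10 libraries (209 to 271 CPM) lay below the single rRNA-rich IVV library (431 CPM), a difference of -0.87. Over all libraries the difference was 0.68 (two-sided exact permutation p = 0.262 of 84 assignments), and 0.16 ± 0.68 (SE) in the edgeR fit (adjusted p = 1.0). In a fit of the rRNA-poor libraries alone Gpr3 was past the threshold with a log2 fold change of 1.25 ± 0.20 (SE) and adjusted p = 0.0896, on 2 libraries against 2, where 12.1% of all genes were past it. Without IVV replicate 2 the edgeR difference was -0.19, without replicate 4 it was -0.26, and without replicate 3 it was 1.48.

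Gpr3 overlaps Cd164l2 on the opposite strand. That gene had 1586 to 47571 counts and more counts than Gpr3 in 8 of 15 libraries, all 6 rRNA-poor libraries among them. Whether the counting used strand is not stated in the sources used here, so reads of the overlapping stretch cannot be assigned to 1 of these genes with certainty.

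Gpr12, a close relative of Gpr3 that also raises cAMP, was near the detection limit. IVV had 85, 10 and 61 counts (1.78, 0.61 and 1.24 CPM), IVG had 0, 55 and 37 counts (0, 1.25 and 0.65 CPM) and IVG-NT had 53, 39 and 74 counts (1.56, 1.32 and 1.73 CPM). At day 6 there were 12, 0 and 81 counts in IVG and 0, 0 and 24 in IVG-NT, where 0 counts in the shallow replicates 1 and 2 allow up to 3 counts per library. All 3 IVG-NT libraries lay above all 3 IVG libraries and above all 3 IVG-NT day 6 libraries, though the first gap was small, from 1.25 to 1.32 CPM. With 3 libraries against 3 the exact permutation p is then 0.1, the smallest this design allows, and 1.66% and 9.74% of all genes had groups that did not overlap, in the same direction, in these comparisons. The edgeR log2 fold change of IVG-NT against IVG was 1.27 ± 1.95 (SE), adjusted p = 1.0. The ratio of Gpr3 to Gpr12, per length, was 44.6 to 692 in the 11 libraries with any Gpr12 count. The third member of this receptor family, Gpr6, had 0 counts in all 15 libraries.

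Gnas, which encodes the stimulatory G protein alpha subunit that couples the receptors to adenylyl cyclase, was lower in the day 10 cultures than in IVV in both kinds of library. IVV had 169, 113 and 179.6 CPM, IVG had 50.3, 48.4 and 143 CPM, and IVG-NT had 78.6, 52.7 and 109 CPM. Every IVG-NT library lay below every IVV library (exact permutation p = 0.1, the smallest possible, where 7.04% of all genes had groups that did not overlap, in the same direction), and 2 of 3 IVG libraries did.

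For both day 10 groups together against IVV, the mean Gnas difference was -1.04 on the log2 CPM scale (two-sided exact permutation p = 0.0476 of 84 assignments, where 9.81% of all genes had p under 0.05). It was -1.01 among rRNA-rich libraries, where all 4 day 10 libraries (48.4 to 78.6 CPM) lay below the IVV library (113 CPM), and -0.48 among rRNA-poor libraries, where 143 and 109 CPM lay below 169 and 179.6 CPM. Of all genes, 10.6% were lower in this way within both kinds. With labels permuted within the kinds of library the exact p was 0.0333, the smallest of the 30 assignments, a value under 0.05 that 14.9% of all genes also had. The edgeR fit gave -0.94 ± 0.78 (SE) and adjusted p = 1.0, so Gnas was not past the threshold there, and its difference was negative under every alternative setting run.

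Gnas in the day 6 cultures rested on the shallow libraries. IVG day 6 had 87.9, 124 and 155 CPM, and IVG-NT day 6 had 5.78, 8.53 and 128 CPM, the first 2 from 32 and 49 counts. The log2 fold change of IVG-NT day 6 against IVG day 6 was -1.37 ± 0.95 (SE), adjusted p = 0.569 in edgeR's test. It was -4.10 (adjusted p = 0.00823) without IVG-NT day 6 replicate 3, the only deep library of its group, where 29.1% of all genes were past the threshold, and it was 0.14 with both shallow libraries left out. Gnas also overlaps the opposite-strand genes Nespas (0 to 80 counts) and Gm20721 (0 to 2 counts).

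Of the adenylyl cyclases, which make cAMP, Adcy9 had similar means in all groups, 15.9 to 22.1 CPM, and Adcy3 spanned 0.78 to 119.5 CPM. Adcy9 had 15.9, 33.5 and 17.1 CPM in IVV, 12.3, 19.5 and 28.9 in IVG, 21.5, 18.0 and 16.3 in IVG-NT, 12.6, 21.4 and 17.2 in IVG day 6, and 9.94, 25.8 and 12.0 in IVG-NT day 6. All groups overlapped, and the log2 fold change of the day 10 cultures against IVV was -0.19 ± 0.71 (SE), adjusted p = 1.0. The SE exceeds that difference, so the data do not show that Adcy9 was equal.

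Adcy3 was close to the limit of detection in IVV, with 9, 30 and 16 counts (0.19, 1.82 and 0.33 CPM). It had 355, 535 and 30 counts (9.97, 12.1 and 0.53 CPM) in IVG and 218, 418 and 24 counts (6.42, 14.1 and 0.56 CPM) in IVG-NT. The rRNA-rich day 10 libraries (6.42 to 14.1 CPM) all lay above the rRNA-rich IVV library (1.82 CPM), and the rRNA-poor day 10 libraries lay above both rRNA-poor IVV libraries. Of all genes, 8.57% were higher in this way within both kinds. The mean Adcy3 difference was 2.84 on the log2 CPM scale over all libraries (exact permutation p = 0.107), 2.46 among rRNA-rich and 0.98 among rRNA-poor libraries. With labels permuted within kinds of library the exact p was 0.0333, again the smallest of 30, and 14.9% of all genes had such a p under 0.05. In the edgeR fit the difference was 3.25 ± 2.02 (SE), adjusted p = 1.0.

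The Adcy3 difference depended on the fit. It passed the threshold when low counts were not filtered (3.24, adjusted p = 0.309), in a fit of only the 3 groups compared (3.26, adjusted p = 0.595) and without both shallow libraries (3.22, adjusted p = 0.336), settings in which 13.3%, 7.76% and 14.3% of all genes passed it, and it was 1.31 and not past it (adjusted p = 1.0) when the fit included the kind of library. Cenpo, on the opposite strand and overlapping Adcy3, had 88 to 7861 counts and more counts than Adcy3 in 14 of 15 libraries, and strand cannot be resolved here.

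The 1 member call in the edgeR fit of all libraries to group means was Adcy3 at day 6, and it came from a single library. IVG day 6 had 28, 159 and 14 counts (1.01, 8.19 and 0.21 CPM), and IVG-NT day 6 had 0, 2056 and 34 counts (0, 358 and 0.55 CPM). Replicate 2 of IVG-NT day 6 thus stood above every other library and the other replicates did not. The log2 fold change was 5.26 ± 2.32 (SE), adjusted p = 0.407, and without that library it was -3.19. In it Adcy3 made up 92.0% of the summed FPKM of Adcy3 and Adcy9, against 0% to 40.2% in the other 14 libraries.

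**Figure D3:**
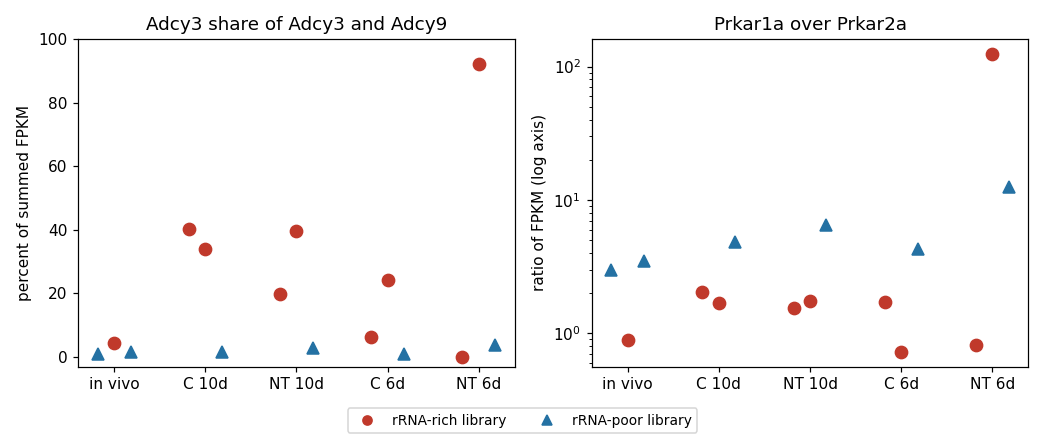
Left, the share of Adcy3 in the summed normalized FPKM of Adcy3 and Adcy9 in each library, in percent. Right, the ratio of Prkar1a to Prkar2a in FPKM on a log axis (circles, rRNA-rich; triangles, rRNA-poor). Adcy3 is 19.9% to 40.2% in the rRNA-rich day 10 libraries, 0.98% to 4.33% in IVV and 92.0% in IVG-NT day 6 replicate 2, where the right-hand ratio is 125.

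Pde3a, the cAMP-degrading enzyme that ends the arrest when cGMP falls, followed the kind of library more than the group. IVV had 81.3, 287 and 77.7 CPM, IVG had 536, 431 and 98.9 CPM and IVG-NT had 403, 453 and 73.3 CPM. IVG day 6 had 424, 433 and 98.6 CPM, and IVG-NT day 6 had 96.7, 202 and 77.8 CPM. Apart from IVG-NT day 6 replicates 1 and 2, every rRNA-rich library (287 to 536 CPM) lay above every rRNA-poor one (73.3 to 98.9 CPM).

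The day 10 cultures had 1.09 more Pde3a than IVV on the log2 CPM scale (exact permutation p = 0.202), and 0.66 among rRNA-rich and 0.10 among rRNA-poor libraries (p = 0.1 within kinds). The edgeR value was 1.16 ± 0.77 (SE), adjusted p = 1.0. Without IVV replicate 3, the rRNA-rich library of that group, it was 1.997 (adjusted p = 0.888) and past the study's threshold, with 5.28% of all genes, so a single library decided that call.

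With NT-4, averaged over both days, Pde3a was lower by a log2 CPM difference of -0.72 (6 libraries against 6, exact permutation p = 0.285 of 400 assignments). Within kinds of library the exact p was 0.0278 of 144, a value under 0.05 reached by 6.01% of all genes, with -0.89 among rRNA-rich and -0.39 among rRNA-poor libraries. Both shallow IVG-NT day 6 libraries are in that rRNA-rich value. With them left out and the kind of library in the fit, the edgeR difference was -0.26 (adjusted p = 0.955), against -0.77 ± 0.60 (SE, adjusted p = 0.957) with all libraries. At day 10 alone, IVG-NT and IVG differed by -0.20 ± 0.85 (SE).

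Pde3b, the other member of the same enzyme family, had 16.3 to 22.0 CPM in the rRNA-poor and 61.1 to 180.6 CPM in the rRNA-rich libraries. Pde3a made up 44.5% to 78.1% of their summed FPKM. The lowest shares, 53.1% and 44.5%, were those of the shallow IVG-NT day 6 libraries. Gm28523, which overlaps Pde3a on the opposite strand, had 4 to 251 counts.

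Prkaca encodes the catalytic subunit of protein kinase A, the kinase that carries the arrest signal. It had 9.91, 28.6 and 8.78 CPM in IVV, 7.33, 8.64 and 9.40 CPM in IVG and 9.86, 8.32 and 8.11 CPM in IVG-NT. At day 6 it had 34.2, 22.7 and 9.47 CPM in IVG and 36.9, 26.8 and 4.63 CPM in IVG-NT. The 6 day 10 libraries were close together (7.33 to 9.86 CPM), whereas the rRNA-rich libraries of IVV and of both day 6 groups stood at 22.7 to 36.9 CPM.

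Against IVV, Prkaca in the day 10 cultures differed by -0.66 on the log2 CPM scale (exact permutation p = 0.0476 of 84, where 9.81% of all genes had p under 0.05). It differed by -1.75 among rRNA-rich and by -0.09 among rRNA-poor libraries (exact permutation p = 0.0667 within kinds). The difference therefore sat in the comparison of 4 rRNA-rich day 10 libraries with IVV replicate 3. The edgeR difference was -0.87 ± 0.81 (SE), adjusted p = 1.0, and -0.17 without that library.

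Between days the same split appeared. Every IVG library lay below every IVG day 6 library (exact permutation p = 0.1, the smallest possible, where 2.95% of all genes had groups that did not overlap, in the same direction). The gap was narrow, from 9.40 to 9.47 CPM between rRNA-poor libraries. Without TMM scaling the order of these libraries was reversed, with 4.71 FPKM in IVG and 4.66 FPKM in IVG day 6. Over both treatments day 10 minus day 6 was -1.06 on the log2 CPM scale (exact permutation p = 0.065 of 400), -1.80 among rRNA-rich and 0.40 among rRNA-poor libraries (p = 0.0417 of 144 within kinds, where 12.4% of all genes had p under 0.05). The edgeR difference was -1.38 ± 0.69 (SE), adjusted p = 0.512. It was past the threshold with DESeq2's size factors (-1.65, adjusted p = 0.404), among rRNA-rich libraries (-1.80, adjusted p = 0.283) and without IVG-NT day 6 replicate 3 (-1.62, adjusted p = 0.0943), where 10.4%, 15% and 24.4% of all genes were past it. It was -0.27 (adjusted p = 1.0) without both shallow libraries. Of the summed FPKM of Prkaca and Prkacb, the other catalytic subunit gene, Prkaca made up 77.8% or more in every library.

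The regulatory subunits bind cAMP and release the catalytic subunit. Prkar1a, the type I subunit, had 105, 66.5 and 94.3 CPM in IVV, 74.1, 67.5 and 142.5 CPM in IVG, 80.3, 90.2 and 138 CPM in IVG-NT, 95.2, 57.8 and 111 CPM in IVG day 6, and 20.8, 58.8 and 180.2 CPM in IVG-NT day 6. The rRNA-poor libraries were the higher ones in every group, the reverse of Gpr3 and Pde3a. Within each kind all day 10 libraries lay above those of IVV, by 0.22 among rRNA-rich and 0.50 among rRNA-poor libraries on the log2 CPM scale (exact permutation p = 0.0667 within kinds and 0.702 over all libraries). Of all genes, 8.57% were higher in this way within both kinds. The edgeR difference was 0.16 ± 0.64 (SE), adjusted p = 1.0.

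Prkar2a, the type II subunit, had 51.8, 109.7 and 39.6 CPM in IVV, 53.7, 58.6 and 43.5 CPM in IVG and 76.6, 76.1 and 31.1 CPM in IVG-NT. IVG day 6 had 81.1, 117 and 38.1 CPM, and IVG-NT day 6 had 37.6, 0.70 and 21.3 CPM, the middle value from 4 counts. All IVG-NT day 6 libraries lay below all IVG day 6 libraries (exact permutation p = 0.1, the smallest possible, where 7.44% of all genes had groups that did not overlap, in the same direction), by the narrow gap from 37.6 to 38.1 CPM. The log2 fold change was -1.99 ± 0.98 (SE), adjusted p = 0.443. It was past the study's threshold at -2.73 (adjusted p = 0.439) without IVG-NT day 6 replicate 1 and at -2.32 (adjusted p = 0.446) without IVG day 6 replicate 3, where 10.1% and 11.2% of all genes passed. The ratio of Prkar1a to Prkar2a, per length, was 2.99 to 12.5 in the rRNA-poor and 0.73 to 2.04 in the rRNA-rich libraries, apart from 125 in IVG-NT day 6 replicate 2. Of the other regulatory subunits, Prkar2b had 2.35 to 42.8 CPM and Prkar1b at most 0.88 CPM.

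**Figure D4:**
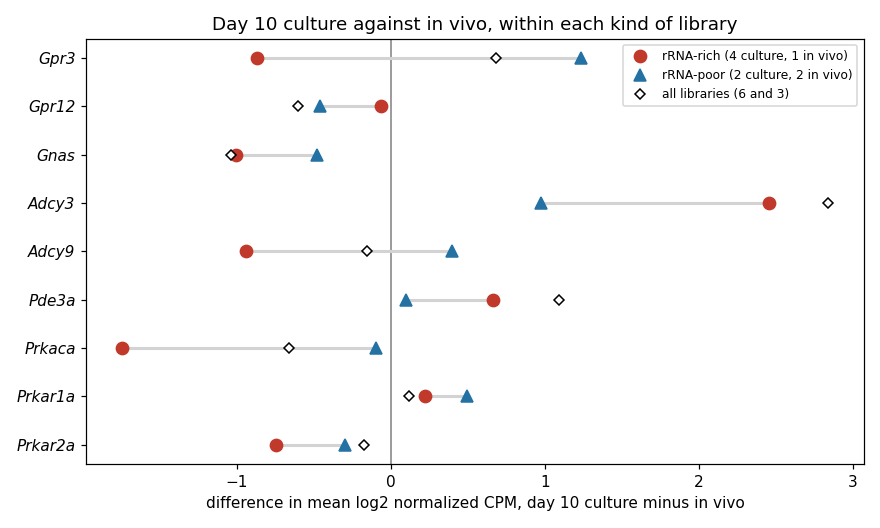
Mean log2 normalized CPM of day 10 culture minus IVV for each gene among rRNA-rich libraries (circles, 4 against 1), among rRNA-poor libraries (triangles, 2 against 2) and over all libraries (diamonds, 6 against 3). Gnas is negative in both kinds (-1.01 and -0.48), Adcy3 is positive in both (2.46 and 0.98), and Gpr3 and Adcy9 change sign between kinds.

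For the question of how culture to day 10 compares with growth in vivo, 3 of the 9 genes thus had no overlap between day 10 culture and IVV within either kind of library and the same direction in both: Gnas was lower, and Adcy3 and Prkar1a were higher. Among all genes tested 19.2% did so, 10.6% lower and 8.57% higher. Without regard to the kind of library, 2 of the 9 (Gnas and Prkaca) had an exact p under 0.05, beside 9.81% of all genes. For IVG-NT against IVG, the test of NT-4 at day 10, the member log2 fold changes lay between -0.20 (Pde3a) and 1.27 (Gpr12), 5 positive and 4 negative. At day 6 they lay between -1.99 (Prkar2a) and 5.26 (Adcy3), 2 positive and 7 negative. The median over the members was 0.05 at day 10, beside 0.01 over all genes, and -0.60 at day 6, beside -0.27. No member passed the test of the NT-4 by day interaction, where the smallest adjusted p was 0.851 (Adcy3). For day 10 against day 6 over both treatments they lay between -1.41 (Adcy3, which was 2.82 without IVG-NT day 6 replicate 2) and 1.74 (Gpr12).

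The wider pathway was followed with 74 other genes, of which 70 passed the filter. None had an adjusted p under 0.05 in a pairwise comparison (edgeR). Past the study's threshold were 2 of the 70 in IVG against IVV (1 higher and 1 lower, 2.76% of all genes), 2 in IVG-NT against IVV (likewise, 3.29%), 1 in IVG-NT against IVG (1.24%), 4 in IVG-NT day 6 against IVG day 6 (11.6%), 3 in IVG against IVG day 6 (2.9%) and 3 in IVG-NT against IVG-NT day 6 (12.7%). The median log2 fold change of the 70 was -0.12 in the first of these comparisons, beside -0.20 over all genes, and -0.10 in the other, beside -0.19.

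Mastl, the kinase that blocks the phosphatase opposing CDK1 when meiosis resumes, was the pathway gene with substantial counts past the study's threshold against IVV. It had 88.5, 127 and 99.9 CPM in IVV, 473, 459 and 112 CPM in IVG and 329, 551 and 115 CPM in IVG-NT. The rRNA-rich day 10 libraries were all above the single rRNA-rich IVV library, and the rRNA-poor ones were above both rRNA-poor IVV libraries. Of all genes, 8.57% were higher in this way within both kinds. Its log2 fold change was 1.73 ± 0.75 (SE) in IVG against IVV and 1.66 ± 0.75 in IVG-NT against IVV, past the study's threshold with adjusted p = 1.0 in both. At day 6 it had 113 to 193 CPM in IVG and 40.2 to 141 CPM in IVG-NT, which holds the shallow libraries. In edgeR's test it was also past the threshold in IVG-NT against IVG-NT day 6 (2.10 ± 0.76, adjusted p = 0.357, 12.7% of all genes). Day 10 against day 6 over both treatments was past it too (1.69 ± 0.53, adjusted p = 0.337, 10.4%). IVG against IVG day 6 was not, at 1.28 ± 0.74.

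Other pathway genes were past the threshold in IVG-NT day 6 against IVG day 6, where 11.6% of all genes were. Replicates 1 and 2 of IVG-NT day 6 are the shallow libraries, and their part in these calls was not tested. Akap11, an anchoring protein for protein kinase A, had 106, 124 and 15.4 CPM in IVG day 6 and 11.02, 2.79 and 8.85 CPM in IVG-NT day 6, a log2 fold change of -3.43 ± 1.04 (SE), adjusted p = 0.381. Cdc25b, the phosphatase that activates CDK1 and is held back by protein kinase A, had 166, 144 and 45.9 CPM against 38.1, 2.96 and 30.1 CPM, a log2 fold change of -2.32 ± 0.95 (SE), adjusted p = 0.393. For both genes all 3 IVG-NT day 6 libraries lay below all 3 IVG day 6 libraries, as for 7.44% of all genes. Pde7b, a cAMP phosphodiesterase, and the adenylyl cyclase Adcy7 were past the threshold upward, each through IVG-NT day 6 replicate 2 alone, with 952 and 170 counts against 0 in both other replicates. Adcy7 was also past it in IVG-NT against IVV, with 14, 63 and 0 counts in IVV and 0 in all IVG-NT libraries.

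3 genes were past the threshold with groups at or near 0. Nppc, the granulosa cell ligand whose receptor NPR2 makes the cGMP that restrains PDE3A, had 4, 64 and 37 counts in IVG and 0 in all IVG day 6 libraries, and Npr2 had 0, 245 and 122 against 0. Granulosa and cumulus markers were 99.95 to 305.9 CPM in IVG and 53.8 to 146 CPM in IVG day 6, and their part in these counts was not tested. Gnal, which encodes another stimulatory alpha subunit, had 100, 14 and 62 counts in IVV and 0 in all IVG libraries, with 0, 2 and 16 in IVG-NT. IVG day 6 libraries had 0 to 30 counts of Gnal. This gene was past the threshold in IVG against IVV, IVG against IVG day 6 and IVG-NT against IVG. In the last of these it was the 1 pathway gene past it.

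The genes whose levels ran most like 3 of the members were found by the mean of the Pearson correlations of log2 CPM within the 9 rRNA-rich and within the 6 rRNA-poor libraries, over 7473 genes. For Gpr3 they were Tanc2, Taldo1 and Apeh, with means of 0.80, 0.80 and 0.79. For Pde3a they were Pik3r4 (0.96), Adipor2 (0.95) and Foxred2 (0.95), and for Prkaca they were Ssbp3 (0.93), Minos1 (0.93) and Sap30l (0.92). Within a kind the total counts ran from 5.95 M to 43.5 M (rRNA-rich) and from 38.5 M to 55.6 M (rRNA-poor). The part of depth in these correlations was not tested, and the values are given as a description.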

How the data were processed

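Oocyte RNA was amplified with SMART-Seq2 and sequenced in 15 libraries, 3 per group. The authors aligned the reads to mm10 with HISAT2 and deposited raw counts per Ensembl gene, without normalization. How counts were assigned to genes, and whether strand was used, is not given in the sources used here. Of 55401 identifiers, 99.5% matched GENCODE vM21.

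The filter was filterByExpr (minimum count 10) and the scaling TMM. A single model with a mean for each of the 5 groups was fitted to the 15 libraries, and contrasts were tested by quasi-likelihood in edgeR 4.0.16 (R 4.3.3), with Benjamini-Hochberg adjustment over 21009 genes. DESeq2 1.42.0 was an alternative. Single genes were compared by exact permutation of log2 CPM (prior count 2), two-sided and uncorrected, also within kinds of library, a split at 5% rRNA gene counts. Error terms cover the spread between libraries, and limits from counts cover counting error only. The code was tested on simulated data. The members, the 74 other pathway genes and the markers were chosen with earlier results of these data known. Named genes were the members, pathway genes past the threshold in a pairwise comparison, 5 paralogs, and the 3 genes most like Gpr3, Pde3a and Prkaca.

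Replicate numbers come from the sample titles. Same-numbered libraries deviated together in IVG and IVG-NT (correlations 0.37, 0.41 and 0.73) and in IVG and IVG day 6 (0.23, 0.15 and 0.54), but not in every pair at NT-4 day 6 (0.08, 0.11 and 0.33 against IVG day 6). So did different-numbered libraries of the same kind, such as IVG replicate 1 with IVG-NT replicate 2 (0.37) and IVG replicate 2 with IVG day 6 replicate 1 (0.26). In every culture group replicates 1 and 2 were rRNA-rich and replicate 3 was rRNA-poor. Pairing by number therefore cannot be told apart from the kind of library in these correlations. IVV shares only the numbers 2 and 3, with correlations of -0.28 and -0.49 against IVG.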

Additional observations from a re-analysis of the deposited data

How the results depend on the processing

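The count of members past the study's threshold changed under these settings, given with the members named and, as a percentage, the share of all genes past it in the same fit. With no filter on low counts it was 1 (Adcy3) in IVG against IVV (4.49%), IVG-NT against IVV (4.33%), IVG-NT against IVG-NT day 6 (11.6%), the day 10 mean against IVV (13.3%), NT-4 over both days (4.47%) and the interaction (4.96%), and with only the groups compared in the fit it was 1 (Adcy3) in IVG against IVV (5.28%) and in the day 10 mean against IVV (7.76%). Among rRNA-poor libraries it was 1 (Gpr3) in IVG against IVV (10.6%), IVG-NT against IVV (11.3%) and the day 10 mean against IVV (12.1%), 1 (Gpr12) in the interaction (14.9%) and 0 in IVG-NT day 6 against IVG day 6 (15.9%). Among rRNA-rich libraries it was 2 (Gnas and Pde3a) in IVG-NT day 6 against IVG day 6 (18.1%), in IVG-NT against IVG-NT day 6 (19.5%) and in the interaction (11.8%), 2 (Gnas and Prkaca) in day 10 against day 6 (15%), 1 (Gnas) in NT-4 over both days (10.8%) and 1 (Gpr3) in IVG against IVG day 6 (1.77%). With the kind of library in the fit it was 3 (Adcy3, Gnas and Pde3a) in IVG-NT day 6 against IVG day 6 (15.8%) and 1 (Gnas) in the interaction (8.96%). With DESeq2's Wald test it was 0 in IVG-NT day 6 against IVG day 6 (13.6%) and 1 (Prkaca) in IVG-NT against IVG-NT day 6 (14.2%) and in day 10 against day 6 (10.2%), where DESeq2's size factors in edgeR also gave 1 (10.4%). Without both shallow libraries, a setting added after seeing the data, it was 1 (Prkaca) in IVG against IVG day 6 (3.38%, and 7.34% with the kind of library in the fit) and 1 (Adcy3) in the day 10 mean against IVV (14.3%), and the call in IVG-NT day 6 against IVG day 6 was Prkaca (2.7%), or Prkar2a with the kind of library in the fit (6.11%), in place of Adcy3.

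With the replicate block the call in IVG-NT day 6 against IVG day 6 passed from Adcy3 (4.14) to Gnas (-2.15), both with adjusted p = 0.778 and 5.42% of all genes past the threshold under the block, and no other member call changed. The numbers were not taken to pair the libraries at NT-4 day 6, where a same-numbered pair was under 0.1. Not every library correlated best with its own number there (IVG-NT day 6 replicate 1, 0.08 against 0.10 with IVG day 6 replicate 2), nor in the groups taken as paired (IVG replicate 1, 0.3705 against 0.3741 with IVG-NT replicate 2, and IVG replicate 2, 0.15 against 0.26 with IVG day 6 replicate 1). In the day 10 mean against IVV, whose replicate numbers do not pair, the block turned Gpr3 (-0.62), Adcy3 (-0.43) and Pde3a (-0.19).

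Other log2 fold changes that turned were as follows, and the cause was not tested. In the day 10 mean against IVV, Prkar1a was -0.023 with DESeq2's size factors and its Wald test, Gpr3 was -0.84 and Gpr12 0.67 among rRNA-rich libraries, Adcy9 was 0.43 among rRNA-poor ones, and Gpr12 was 0.51 with the kind of library in the fit and 0.23 when both shallow libraries were left out as well. Without both shallow libraries, Gnas was 0.14 and Adcy3 -2.37 in IVG-NT day 6 against IVG day 6, and Adcy3 was 2.41 in day 10 against day 6 (0.70 with the kind of library). Among rRNA-poor libraries Adcy3 was 0.62 and Prkaca 0.34 in day 10 against day 6.

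Leaving out 1 library at a time, the count of members ranged from 0 to 1 in IVG against IVV and the day 10 mean against IVV (1, Pde3a, without IVV replicate 3) and in NT-4 over both days, from 0 to 2 in IVG-NT day 6 against IVG day 6, day 10 against day 6 and the interaction, and from 0 to 3 in IVG-NT against IVG-NT day 6. Outside IVV, each change came from leaving out IVG-NT day 6 replicate 1, 2 or 3 or IVG day 6 replicate 1 or 2. Beside these counts of up to 3, the share of all genes past the threshold was up to 30.8% without IVG-NT day 6 replicate 3 and up to 11.2% without any other library where a member passed. The log2 fold changes that turned ranged, in the day 10 mean against IVV, from -0.26 to 1.48 (Gpr3), -0.76 to 0.10 (Gpr12), -0.38 to 0.19 (Adcy9), -0.0545 to 0.30 (Prkar1a) and -0.51 to 0.25 (Prkar2a). They ranged from -0.64 to 0.27 for Pde3a in IVG-NT against IVG, and for Adcy3 from -3.19 to 7.63 in IVG-NT day 6 against IVG day 6 and from -1.92 to 2.82 in day 10 against day 6.

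Over all genes the count past the threshold moved widely with the setting, from 579 to between 199 and 2433 in IVG against IVV, 691 to between 235 and 2586 in IVG-NT against IVV, 261 to between 28 and 1856 in IVG-NT against IVG, 2430 to between 451 and 6817 in IVG-NT day 6 against IVG day 6, 609 to between 311 and 2410 in IVG against IVG day 6 and 2661 to between 657 and 7211 in IVG-NT against IVG-NT day 6. It went from 1134 to between 796 and 4872 in the day 10 mean against IVV, 1299 to between 606 and 4707 for NT-4 over both days, 2178 to between 1206 and 5715 for day 10 against day 6 and 1339 to between 534 and 4956 for the interaction. Gpr12 had 0 counts in 4 libraries and Adcy3 in 1, where a count of 0 allows up to 3 counts.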
